A study of Homo sapiens with 9 samples.

Results

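The small nuclear RNA U1 is the RNA of the U1 snRNP, the particle that recognises the 5′ splice site of introns by base pairing, and it is encoded by a family of short, intronless genes. Occupancy of RNA polymerase II at 10 of these genes was described from 3 deposited lists of POLR2A peaks: RNU1-1, RNU1-2, RNU1-3, RNU1-4, RNU1-27P, RNU1-28P, RNVU1-7, RNVU1-14, RNVU1-18 and RNVU1-19. The genes were given by symbol, out of 62700 genes of GENCODE version 44. A peak was assigned to a gene when its summit lay within 1000 bp of the gene start or when the peak overlapped the gene. The list for control shRNA held 2757 peaks, of which 9 were at listed genes, that for U2AF1 knockdown 1730 with 9, and that for DHX9 knockdown 4443 with 10. The genes were selected on peak values of these same lists, so the presence, rank, width and summit offset of their peaks, which the rule compares, are given as a description with no test.

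ChIP-seq against POLR2A, which forms the catalytic core of the polymerase, was done in HEK293T, a line derived from human embryonic kidney. The groups were a control shRNA (shCtrl, genotype labelled wildtype), a knockdown of U2AF1 (shU2AF1) and a knockdown of DHX9 (shDHX9), each with 2 ChIP replicates and 1 input. U2AF1 is the small subunit of the U2AF dimer, which contacts the end of introns, and DHX9 is a helicase that unwinds RNA and RNA-DNA hybrids. The labels give neither the hairpin sequences nor the time after knockdown, and how strongly either gene was reduced is not measured here. With 1 list per condition, replicate error could not be given for any value. The library depth is unknown from the lists. None of 4 genes known from HEK293 cells (LIN28B, PAX2, NEFM, INA) and none of 4 genes of other cell types (PTPRC, CD3E, ALB, TYR) had a peak in any list, so the cell type could not be checked from them.

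U1 genes are transcribed by RNA polymerase II from a promoter without a TATA box. A distal element, which often holds an octamer bound by POU2F1, and a proximal element bound by the complex SNAPc lie upstream of the start. Downstream of the gene a 3′ box directs cleavage of the nascent RNA by the Integrator complex, and the polymerase runs on past the end of the gene before it stops. The cap-proximal end of the RNA pairs with the 5′ splice site.

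The transcribed sequences of the listed genes fell into 4 groups, and 7 of the 10 genes were identical over all 164 bases. These were RNU1-1 (chr1:16514122-16514285, minus strand), RNU1-2 (chr1:16895980-16896143, plus), RNU1-3 (chr1:16666785-16666948, minus), RNU1-4 (chr1:16740516-16740679, plus), RNVU1-18 (chr1:143729407-143729570, minus), RNU1-27P (chr14:34546714-34546877, plus) and RNU1-28P (chr14:34556226-34556389, minus). The variants were RNVU1-7 (chr1:148038753-148038916, minus), RNVU1-14 (chr1:145281116-145281279, plus) and RNVU1-19 (chr1:120850819-120850985, minus). GENCODE annotates all 10 as snRNA genes, whereas RefSeq lists RNU1-27P and RNU1-28P as pseudogenes. The gene sequences are shown because they set how far reads can be told apart. In RNU1-1 the capitals mark the segment that pairs with the 5′ splice site, bases 3 to 11, and in the variants they mark bases that differ from RNU1-1.
RNU1-1: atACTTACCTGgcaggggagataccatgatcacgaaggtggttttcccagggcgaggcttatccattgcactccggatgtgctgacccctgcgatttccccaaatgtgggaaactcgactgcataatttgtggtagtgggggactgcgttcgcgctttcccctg
RNVU1-7: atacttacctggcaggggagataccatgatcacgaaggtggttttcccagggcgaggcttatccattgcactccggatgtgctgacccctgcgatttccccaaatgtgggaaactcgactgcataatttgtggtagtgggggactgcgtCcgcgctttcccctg
RNVU1-14: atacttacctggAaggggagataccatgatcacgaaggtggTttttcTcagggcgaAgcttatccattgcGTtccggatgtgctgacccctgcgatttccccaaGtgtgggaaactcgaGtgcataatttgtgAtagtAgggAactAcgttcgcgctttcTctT
RNVU1-19: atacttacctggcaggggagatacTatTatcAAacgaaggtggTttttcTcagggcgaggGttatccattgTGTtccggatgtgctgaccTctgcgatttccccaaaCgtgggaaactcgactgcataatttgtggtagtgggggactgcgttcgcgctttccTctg

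All 10 genes carried the splice site segment unchanged at bases 3 to 11. Counting from 1 at the 5′ end of RNU1-1, RNVU1-7 differed by 1 substitution, T150C (99.4% identity). RNVU1-14 differed by 13 substitutions, among them C13A just behind the segment, with 1 base inserted and 1 missing (90.9%). RNVU1-19 differed by 10 substitutions and 3 inserted bases (92.2%), and it is 167 bases long. C47T, A70G, C71T and C161T were shared by RNVU1-14 and RNVU1-19.

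The sequences before the genes differed more than the genes. Over the 250 bases before the start, identity between pairs of listed genes had a median of 74.6% and ranged from 57.5% to 100% (45 pairs), against a median of 99.4% for the genes themselves. RNU1-1 and RNU1-2 were 95.6% identical there. RNU1-27P was 58.7% identical to RNU1-1 upstream although their genes did not differ. Over the 250 bases after the gene the median identity was 52.9%. The 250 bases before 4 genes are shown because they cover the range of these differences, on the gene's strand in hg38. They are chr1:16514286-16514535 for RNU1-1, chr14:34546464-34546713 for RNU1-27P, chr1:145280866-145281115 for RNVU1-14 and chr1:120850986-120851235 for RNVU1-19. Capitals mark the match to ATGNAGAT and, where present, to the core of the proximal element.
RNU1-1: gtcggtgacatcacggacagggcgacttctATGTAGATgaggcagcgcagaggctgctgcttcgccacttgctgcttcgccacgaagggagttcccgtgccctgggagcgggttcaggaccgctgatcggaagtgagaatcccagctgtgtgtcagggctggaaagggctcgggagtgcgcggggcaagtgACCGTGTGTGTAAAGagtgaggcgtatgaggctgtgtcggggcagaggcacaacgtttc
RNU1-27P: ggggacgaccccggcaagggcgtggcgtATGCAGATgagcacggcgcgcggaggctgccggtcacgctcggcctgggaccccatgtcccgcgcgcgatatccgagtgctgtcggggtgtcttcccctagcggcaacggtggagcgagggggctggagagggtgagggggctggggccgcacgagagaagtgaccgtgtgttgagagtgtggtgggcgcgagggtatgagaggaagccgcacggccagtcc
RNVU1-14: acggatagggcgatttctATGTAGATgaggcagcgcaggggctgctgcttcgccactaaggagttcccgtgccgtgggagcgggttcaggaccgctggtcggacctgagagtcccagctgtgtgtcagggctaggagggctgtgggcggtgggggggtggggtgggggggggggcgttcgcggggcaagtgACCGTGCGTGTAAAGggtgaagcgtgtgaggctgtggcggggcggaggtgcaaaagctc
RNVU1-19: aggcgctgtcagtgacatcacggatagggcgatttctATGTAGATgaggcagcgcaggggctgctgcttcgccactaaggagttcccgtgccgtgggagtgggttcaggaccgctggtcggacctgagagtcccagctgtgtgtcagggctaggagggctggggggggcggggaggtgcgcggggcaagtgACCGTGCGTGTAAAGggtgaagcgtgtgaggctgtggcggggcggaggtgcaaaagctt

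The core of the proximal element was searched on both strands as ACC, any base, T, any 6 bases and AAAG, and the other promoter motifs on both strands as well. It was found in 8 of 10 listed genes, each time starting at -59 bp from the gene start, and in 0.747% of the 250-base stretches before all 62663 genes on the assembled chromosomes. RNU1-27P and RNU1-28P had no exact match. At -59 bp the RNU1-27P sequence shown above reads accgtgtgttgagag, which departs from the pattern only in agag for AAAG. RNU1-28P was identical to RNU1-27P over the 250 bases. The search allowed no mismatch, so no match does not mean that a proximal element is lacking. The canonical octamer ATGCAAAT was found before none of the 10 genes and before 2.07% of all genes. The related ATGNAGAT, chosen after these sequences had been read, was found before 10 of 10 and before 3.17% of all genes, starting between -239 and -213 bp from the gene start. A core of the element bound by the activator ZNF143, searched as CCCAG, any base and ATGC, was found before none of the 10 genes and before 0.488% of all genes. A match is a description of the letters and not evidence of binding.

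After the gene, 4 of 10 listed genes held a match to the 3′ box within 60 bases, against 0.179% of all genes. The box was searched on the gene's strand as GTTT, up to 3 bases, AAA, 2 or 3 bases, AGA. The matches were at RNU1-1, RNU1-2, RNU1-3 and RNU1-4, each starting 11 bases past the gene end. RNU1-3 and RNU1-4 were identical over these bases, so the matches are not independent of each other. The search allowed no departure from the pattern, so no match does not mean that a 3′ box is lacking. The 60 bases after 5 genes are shown, with a match in capitals, at chr1:16514062-16514121, chr1:16896144-16896203, chr14:34546878-34546937, chr1:148038693-148038752 and chr1:145281280-145281339, in this order.
RNU1-1: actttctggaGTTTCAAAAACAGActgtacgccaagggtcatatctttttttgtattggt
RNU1-2: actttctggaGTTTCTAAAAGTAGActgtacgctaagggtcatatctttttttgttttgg
RNU1-27P: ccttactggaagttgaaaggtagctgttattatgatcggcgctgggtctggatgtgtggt
RNVU1-7: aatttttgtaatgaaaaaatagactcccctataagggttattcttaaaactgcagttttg
RNVU1-14: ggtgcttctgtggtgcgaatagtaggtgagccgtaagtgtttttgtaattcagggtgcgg

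Copies limited what any value at a single gene can mean. Between 1000 bp before and 1500 bp after the gene starts, 23.4% of the 50-base windows occurred once in hg38 (5740 of 24520 windows of the 10 genes). With windows of 36, 100 and 150 bases the share was 18.2%, 37.9% and 46.8%. RNU1-3 and RNU1-4 were identical base for base over this whole stretch, and RNU1-27P and RNU1-28P from 1000 bp before to 1143 bp after the start. A read from 1 member of such a pair cannot be told from a read of the other within these bounds. Inside them, 4 of the 10 genes cannot be measured one by one. Past them RNU1-27P and RNU1-28P differ, and 12.8% and 13.9% of their 50-base windows occurred once. The genes RNVU1-14 and RNVU1-19 stood at the other end, with 100% and 96.4% of the windows centred in the gene occurring once. RNU1-1 had 14.0% there and 49.4% between the gene end and 600 bp past the start. The read length and the treatment of reads with several matches are not given in the sources used here.

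**Figure D1:**
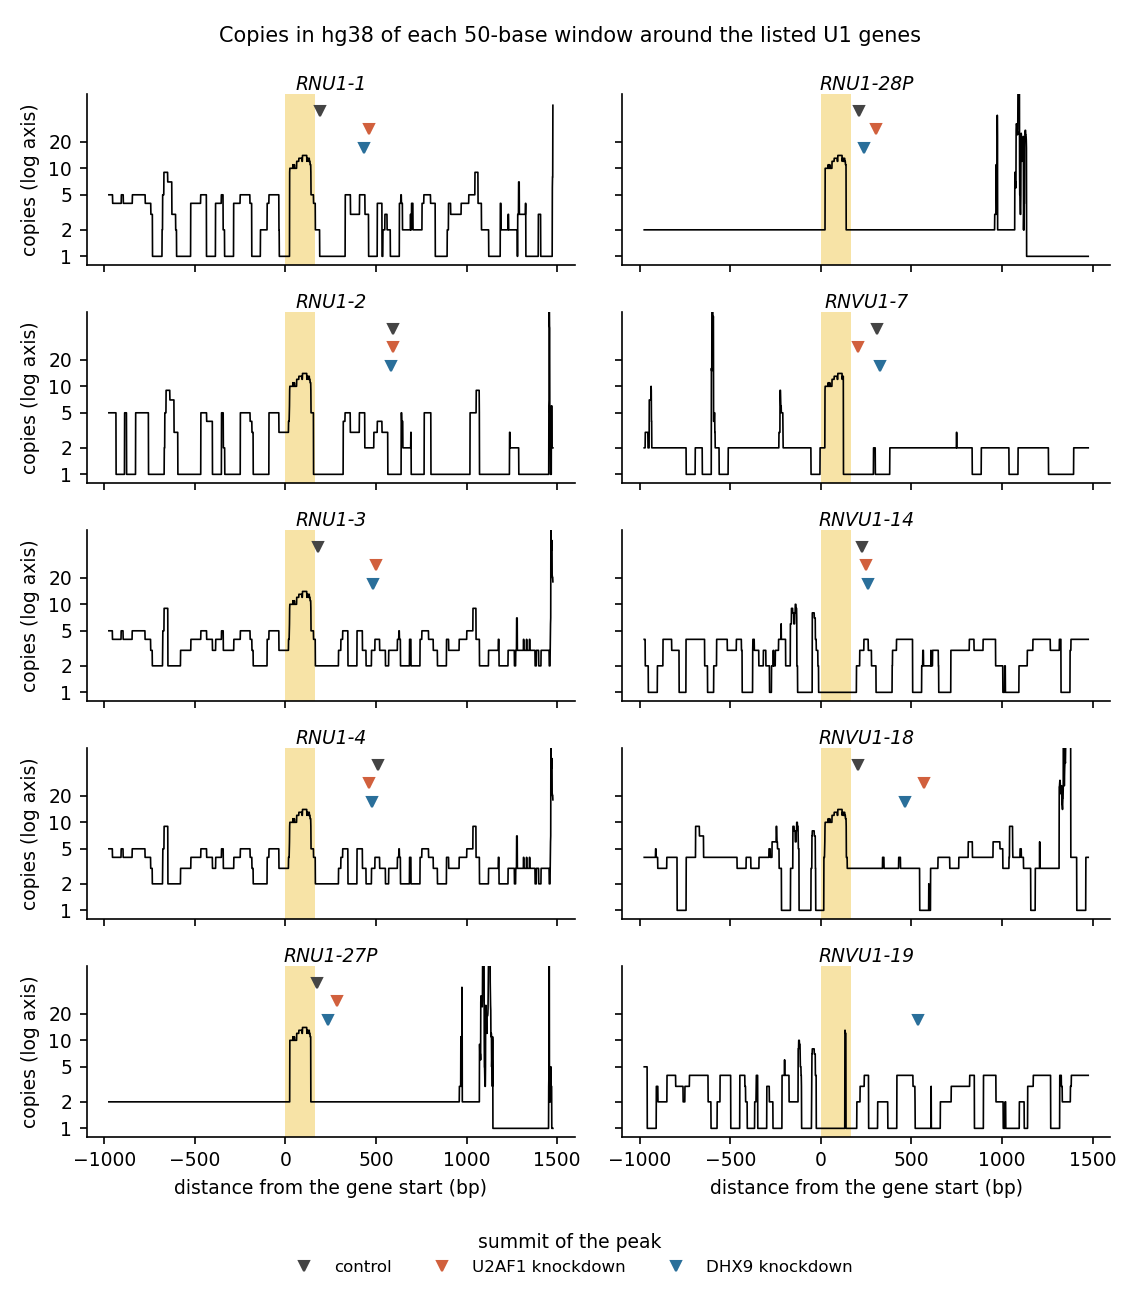
Number of copies in hg38 of each 50-base window (vertical log axis, which ends at 70, so that some repeats run off it) by distance of the window's centre from the gene start in bp, for the 10 listed genes. Yellow is the gene and the triangles are the peak summits in the 3 lists; the middle of 8 of the genes has 13 copies, and RNU1-3, RNU1-4 and most of RNU1-27P and RNU1-28P lay at 2 copies or more.

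RNU1-1, RNU1-2, RNU1-3, RNU1-4, RNU1-27P, RNU1-28P, RNVU1-7, RNVU1-14 and RNVU1-18 had 1 peak in each of the 3 lists. By the same rule, 5.93% of all annotated genes had a peak in the shCtrl list, 3.42% in the shU2AF1 list and 9.79% in the shDHX9 list. All 9 shCtrl peaks were overlapped in both knockdown lists, where 34.6% of all shCtrl peaks were overlapped by a shU2AF1 peak and 66.8% by a shDHX9 peak. Among shCtrl peaks of rank 55 or better, the lowest rank of a listed gene, these shares were 90.9% and 96.4% (50 and 53 of 55). The 9 shU2AF1 peaks were all overlapped by a control and by a shDHX9 peak, against 55.1% and 69.1% of that list and 99.2% and 98.5% of its 130 strongest peaks. Of the 10 shDHX9 peaks, 9 were overlapped by a control and 9 by a shU2AF1 peak, against 41.3% and 26.8% of that list and 98.1% and 91.3% of its 161 strongest. The presence of the 9 genes was therefore near that of peaks as strong, sets in which their own peaks are counted.

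RNVU1-19 was the exception. Its peak was in the shDHX9 list alone, at chr1:120850183-120850582, with a width of 400 bp, rank 161 of 4443 and a fold enrichment of 10.8. It lay from 403 to 802 bp past the gene start and did not overlap the gene, and the start of the lncRNA gene ENSG00000287979 lies within 1000 bp of the same start. Of all shDHX9 peaks, 50.6% had no overlapping peak in the shCtrl and shU2AF1 lists. Of those of rank 161 or better, 98.1% were overlapped by a control peak (158 of 161) and 91.3% by a shU2AF1 peak. Among peaks at least this strong, one without a control peak was therefore uncommon. That set is cut at the rank of the RNVU1-19 peak, which is counted in it as the weakest. RNVU1-14 and RNVU1-19 were 97.2% identical over the 250 bases after the gene, most of which lie before this peak. From the gene start to 1500 bp past it they were 97.3% identical. The 50 bases around the RNVU1-19 summit, at 537 bp, occurred once in hg38. With a start window of 500 bp RNVU1-19 had no peak in any list, and with 2000 bp it still had none in the control and shU2AF1 lists.

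The peaks were among the strongest of each list. Ranks were set within a list by the authors' fold enrichment, a ratio over a background that the files do not name. Since the lists differ in length and background, ranks and folds of different lists are set side by side and show no change. The 9 genes with a peak in every list ranked from 6 to 55 in the shCtrl list (median 26), from 3 to 130 in the shU2AF1 list (median 23) and from 4 to 52 in the shDHX9 list (median 24). Their median fold enrichment was 20.4, 16.4 and 32.2 in this order, against 4.13, 4.75 and 5.27 over all peaks of each list. These values helped to choose the genes and support nothing.

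RNU1-27P was the only listed gene within the top 10 of all 3 lists, with rank 6 (fold enrichment 31.1) in the shCtrl list, 3 (34.9) in the shU2AF1 list and 8 (43.4) in the shDHX9 list. Its identical partner RNU1-28P, 9.68 kb away on the opposite strand, ranked 8 (30.7), 18 (17.9) and 38 (26.0). The pair thus had near-equal ranks in the shCtrl list and unequal ranks in the knockdown lists. For the other identical pair, RNU1-3 ranked 55 (15.4), 23 (16.4) and 52 (21.1). RNU1-4 ranked 16 (23.3), 41 (12.8) and 6 (45.6). RNU1-4 was the higher of the pair in the control and shDHX9 lists and the lower in the shU2AF1 list, at sequences that cannot be told apart.

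RNU1-1 ranked 7 in the shCtrl list (fold enrichment 30.9), 20 in the shU2AF1 list (17.7) and 17 in the shDHX9 list (36.5). RNU1-2 ranked 44 (16.4), 130 (8.42) and 24 (32.2), and the shU2AF1 value was the lowest rank of a listed gene in that list. Both code for the same U1 RNA, and 57.0% of the 50-base windows around RNU1-2 occurred once, the highest share of the 10 genes. RNVU1-18, with the same gene sequence and other flanks, ranked 26 (20.4), 34 (13.4) and 51 (21.8).

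Of the sequence variants, RNVU1-14, whose gene is the least like RNU1-1, ranked 28 in the shCtrl list (20.1), 6 in the shU2AF1 list (25.6) and 4 in the shDHX9 list (49.1), the highest rank of the 10 genes in the last. RNVU1-7, with a single substitution, ranked 27 (20.1), 78 (10.2) and 32 (29.2). Across the 9 genes, Spearman's rho of the ranks was 0.50 between the control and shU2AF1 lists, 0.32 between the control and shDHX9 lists and 0.28 between the knockdown lists. The first and second values share the shCtrl list, and the genes share sequence, so these coefficients only describe the order.

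**Figure D2:**
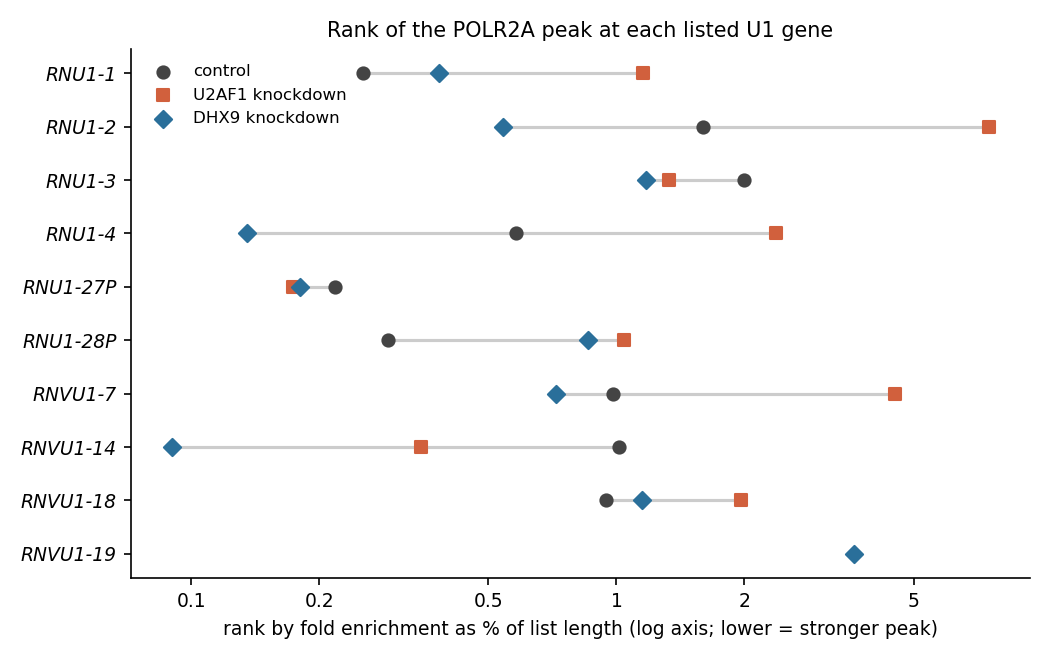
Rank of the peak at each listed gene as a percentage of the list length (log axis, lower is stronger), for the control (circles), shU2AF1 (squares) and shDHX9 (diamonds) lists; grey lines join the values of a gene. The 9 genes with a peak in every list lie between 0.0900% and 7.51%, and RNVU1-19 has a single point, at 3.62%.

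The peaks were also wide. In the shCtrl list they spanned 1088 to 1724 bp (median 1265), against a median of 319 bp over the list. They spanned 974 to 1331 bp (median 1112) in the shU2AF1 list, against 287 bp. In the shDHX9 list the 9 genes had 1229 to 1843 bp (median 1521), against 324 bp. Peaks of 1000 bp or more made up 2.79%, 3.47% and 2.39% of the control, shU2AF1 and shDHX9 lists, and 9, 8 and 9 of the 9 genes had such a peak. RNVU1-18, at 974 bp in the shU2AF1 list, was the 1 below. At the other annotated U1 genes with a peak, named below, the median width was 928, 858 and 1127 bp in the same order of lists. Another 12 snRNA genes of RNA polymerase II, counted below, also had wide peaks. These spanned 959 to 2614 bp, 833 to 1941 bp and 1038 to 2583 bp in the same order. Wide peaks were therefore not particular to the listed genes.

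**Figure D3:**
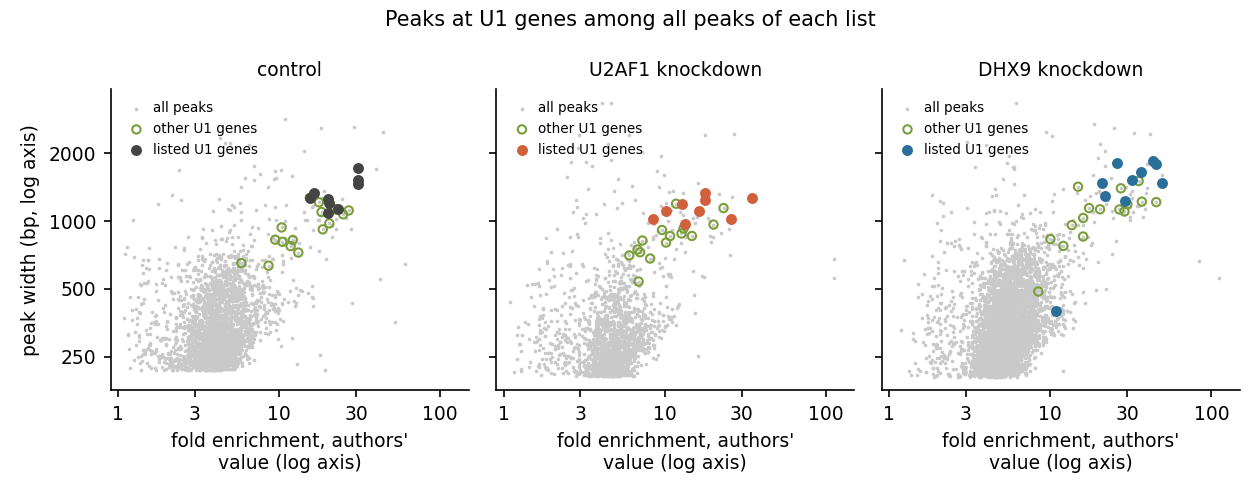
Width in bp (log axis) against the authors' fold enrichment (log axis) for all peaks of each list (grey), peaks at the listed U1 genes (filled) and at other annotated U1 genes (open circles). The listed genes sit at the upper right of each panel, apart from RNVU1-19 in the shDHX9 list, at 400 bp and a fold of 10.8.

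For 8 of 9 genes the shU2AF1 peak was narrower than the shCtrl peak, as it was for 70.6% of the 840 shCtrl peaks overlapped in both knockdown lists and for 85.2% of the 61 of them at least 1088 bp wide. The exception was RNU1-4, with 1132 bp in the shCtrl list and 1188 bp in the shU2AF1 list. The shDHX9 peak was wider for 8 of 9 genes, against 60.6% and 63.9% of these peaks. Here the exception was RNVU1-7, with 1248 bp in the shCtrl list and 1229 bp in the shDHX9 list. For the narrowing, the count at the U1 genes is near the share of the 61 wide peaks, which include those of the 9 genes. Peak width also depends on library depth, and its part in these widths was not tested.

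Summits lay past the end of the gene in all 28 peaks at the listed genes, by 11 to 430 bp. The largest offset from the gene start was 593 bp, inside the window of 1000 bp, and a window of 2000 bp added no gene. At protein-coding genes a summit within 1000 bp of the start lay at a median of 75 bp (n = 1859 peaks), 88 bp (n = 954) and 79 bp (n = 3127) downstream of it in the control, shU2AF1 and shDHX9 lists. Farther downstream than the length of a 164-base U1 gene lay 21.5%, 28.1% and 25.5% of these coding-gene summits. At the listed U1 genes the median offset from the gene start was 212 bp in the shCtrl list and 462 bp in the shU2AF1 list. In the shDHX9 list it was 435 bp over the 9 shared genes. Gene by gene, shU2AF1 minus shCtrl offsets ran from -102 bp (RNVU1-7) to 366 bp (RNVU1-18), with a middle value of 90 bp. For shDHX9 minus shCtrl they ran from -33 bp (RNU1-4) to 308 bp (RNU1-3), with a middle value of 33 bp. The gaps between the medians are therefore not the shift of a typical gene. At the other annotated U1 genes with a peak the median offset was 228.5, 275 and 286 bp in the same order of lists. The 12 other snRNA genes of RNA polymerase II, counted below, had summits downstream as well. RNU4-1 is left out here, as it shares a peak with RNU4-2 in the control and shDHX9 lists. The others had offsets of 182 to 526 bp, 214 to 493 bp and 209 to 500 bp. The upstream edges of the 27 peaks at the shared genes lay between -245 and -10 bp from the start, and the downstream edges between 963 and 1640 bp. These 27 peaks therefore covered the whole gene and a stretch behind it several times the length of the gene. Not all reached the start of the proximal element core at -59 bp. The upstream edge at RNVU1-18 was at -53, -10 and -29 bp in the shCtrl, shU2AF1 and shDHX9 lists. In the shU2AF1 list those at RNU1-2 and RNVU1-14 were at -48 and -52 bp. The edge at RNU1-28P, which has no exact match to the core, was at -55 bp in that list.

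**Figure D4:**
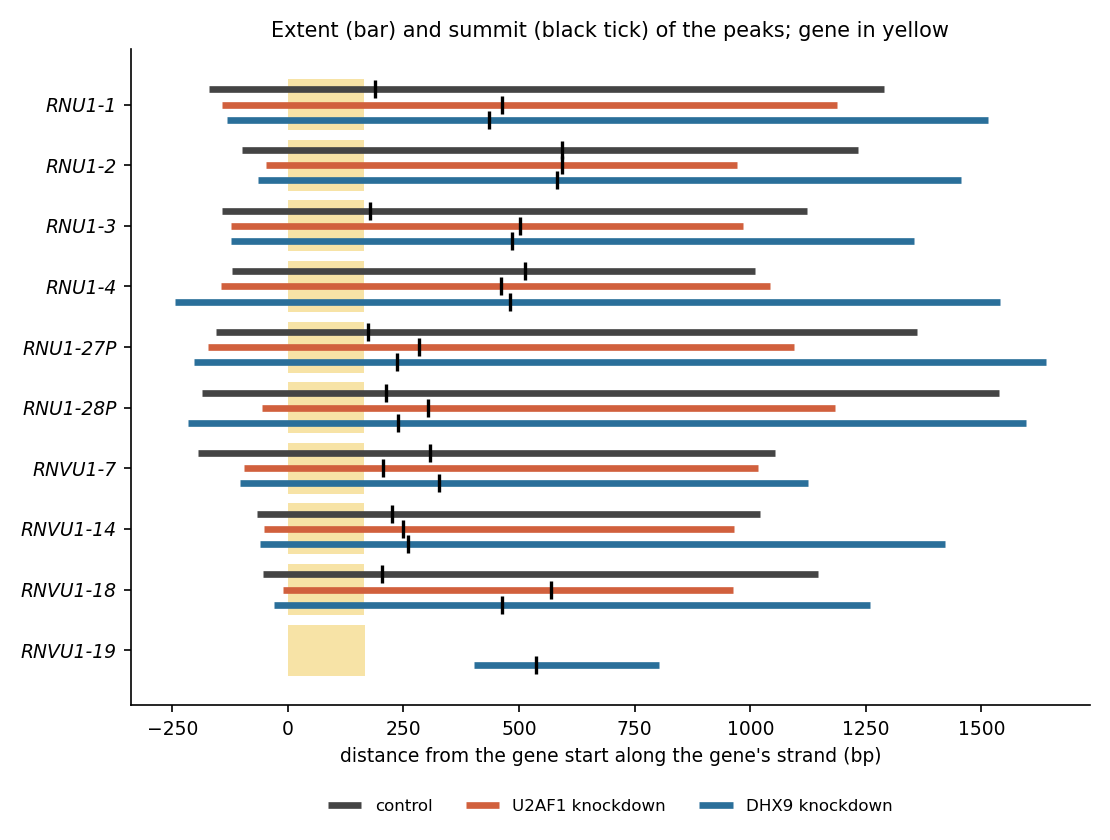
Extent of each peak (bars) and its summit (black ticks) by distance from the gene start in bp along the gene's strand, for the control, shU2AF1 and shDHX9 lists; yellow is the gene. All summits lie to the right of the gene, and the bars reach from -245 bp at the farthest to between 802 and 1640 bp.

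The summit moved between lists at some genes and stayed at others. At RNU1-1 it was at 189 bp in the shCtrl list, 463 bp in the shU2AF1 list and 435 bp in the shDHX9 list. At RNU1-3 the offsets were 177, 501 and 485 bp, and at RNVU1-18 they were 204, 570 and 464 bp. In these 3 genes the shCtrl summit was just past the gene and both knockdown summits lay farther downstream. Between the gene end and 600 bp past the start, 0% of the 50-base windows of RNU1-3 occurred once, and 12.4% of those of RNVU1-18. The 50 bases around the RNVU1-18 summits at 204 and 464 bp had 3 copies, and those at 570 bp occurred once. Summits within the repeated sequence cannot be assigned to a single locus. At RNU1-2 the offsets were 592, 593 and 581 bp, and at RNVU1-14 they were 226, 249 and 259 bp. RNU1-4, the identical partner of RNU1-3, had 513, 462 and 480 bp.

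RNU1-27P had its summits at 174, 283 and 235 bp, RNU1-28P at 212, 302 and 239 bp, and RNVU1-7 at 308, 206 and 326 bp, in the same order of lists. The shU2AF1 summit lay over 100 bp from the shCtrl summit in 5 of 9 genes, against 21.9% of the 840 shared shCtrl peaks and 36.1% of the 61 wide ones. For the shDHX9 this held in 3 of 9 genes, against 22.0% and 36.1%. The knockdown summits lay over 100 bp from each other in 2 of 9 genes, against 23.8% and 27.9%. The shDHX9 count is near the share of the 61 wide peaks, which include those of the 9 genes. The 50 bases around the summit occurred once in hg38 in 3 of 9 shCtrl peaks, 4 of 9 shU2AF1 peaks and 3 of 10 shDHX9 peaks, and the part of the copies in these summits was not tested. Since RNU1-3 and RNU1-4 are identical, a shift in 1 of them and not in the other cannot be assigned to a locus.

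Neighbouring genes touch some of these peaks. RNU1-4 lies inside CROCC, 243 bp from a start of this coding gene, and the upstream edge of the shDHX9 peak of RNU1-4 was at -245 bp. RNU1-2 lies inside the annotated span of CROCC as well. For the other listed genes the nearest start of a protein-coding gene was at least 7010 bp away, that of EAPP from RNU1-27P. Starts of lncRNA genes lay within 1000 bp of the starts of RNU1-1, RNU1-4, RNU1-27P, RNU1-28P, RNVU1-14 and RNVU1-19. Their share of the signal was not tested.

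Of the 133 other annotated U1 genes, 16 had a peak in the shCtrl list (12.0%), 15 in the shU2AF1 list (11.3%) and 16 in the shDHX9 list (12.0%). These were RNVU1-2, RNVU1-2A, RNVU1-3, RNVU1-4, RNVU1-6, RNVU1-8, RNVU1-15, RNVU1-21, RNVU1-22, RNVU1-23, RNVU1-27, RNVU1-28, RNVU1-29, RNVU1-30, RNVU1-31 and RNVU1-34. All but RNVU1-23, which had none in the shU2AF1 list, were in all 3 lists. RNVU1-34 is on chromosome 17 and the others are on chromosome 1. Their median rank was 60 in the shCtrl list (range 12 to 409), 76 in the shU2AF1 list (9 to 367) and 60.5 in the shDHX9 list (7 to 354). RNVU1-15 ranked 18, 12 and 7, and RNVU1-29, whose gene is identical to RNU1-1, ranked 12, 49 and 19. Of the top 50 peaks, 15 in the shCtrl list, 13 in the shU2AF1 list and 14 in the shDHX9 list were at a U1 gene, of which 8, 7 and 7 were at listed genes.

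Across all 143 annotated U1 genes, a peak went with the proximal element core in the 250 bases before the gene. With a match, 23 of 26 genes had a peak in at least 1 list, and without a match 3 of 117 had one. Among the genes not listed the counts were 15 of 18 and 1 of 115. Those without an exact match and with a peak were RNU1-27P, RNU1-28P and RNVU1-34. Near matches, as at RNU1-27P and RNU1-28P, were not counted as matches. The motif ATGNAGAT, chosen after sequences had been read, gave much the same split. With it 24 of 29 genes had a peak, and without it 2 of 114. Among the genes not listed these counts were 14 of 19 and 2 of 114. The parts of the 2 motifs were not told apart. All 8 genes identical to RNU1-1 had a peak in each list. Identity to RNU1-1 by itself had a median of 92.2% in genes with a peak (61.1% to 100%) and of 81.8% in those without (55.4% to 97.0%). These genes share sequence and are not independent of each other.

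**Figure D5:**
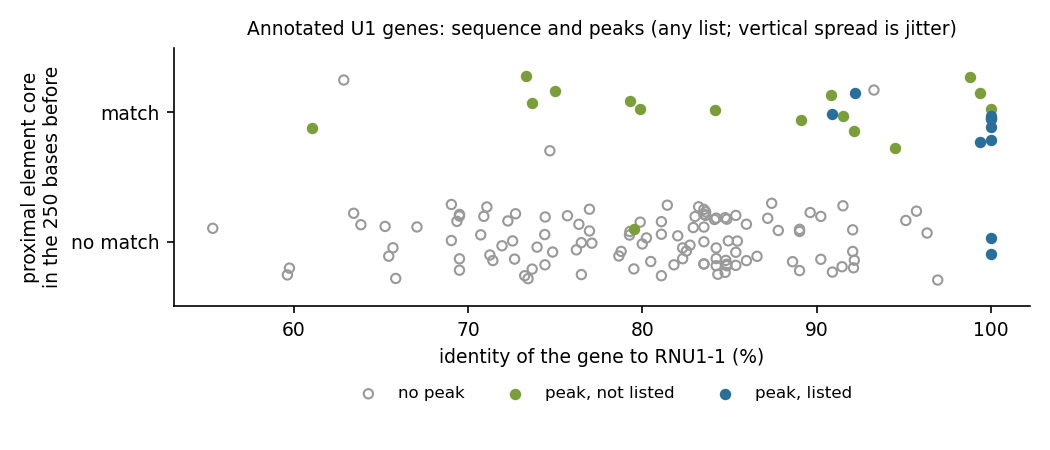
Identity of the 143 annotated U1 genes to RNU1-1 in %, by whether the 250 bases before the gene hold the proximal element core; the vertical spread within a row is random. Filled points have a peak in at least 1 list (blue, listed; green, not listed), 23 of 26 in the upper row and 3 of 117 in the lower.

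Other genes of U1 biology were counted by the same rule. Of all annotated genes, 5.93%, 3.42% and 9.79% had a peak in the control, shU2AF1 and shDHX9 lists. All 12 other snRNA genes of RNA polymerase II on the list used (U2, U4, U5, U11, U12 and U4atac) had a peak in each list. RNU4-1 and RNU4-2 were counted through the same peak in the shCtrl list (rank 9) and in the shDHX9 list (rank 41). Its summit lay 1573 and 1621 bp from the start of RNU4-1. RNU2-2P had the highest fold enrichment of these in the shCtrl list (40.0, rank 5) and the shU2AF1 list (26.3, rank 5), and RNU5E-1, a U5 gene, in the shDHX9 list (43.0, rank 9). Of 7 snRNA genes of RNA polymerase III, 0 had a peak in the control and shU2AF1 lists and 1 in the shDHX9 list, RNU6-2, with rank 2444. The protein genes of the pathway had peaks less often than these 12 snRNA genes, and at lower ranks.

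Of the 3 proteins particular to the U1 snRNP, SNRNP70, SNRPA and SNRPC, SNRNP70 had a peak in the shCtrl list (rank 1736) and in the shDHX9 list (rank 956), and none had one in the shU2AF1 list. Of 12 subunits of SNAPc and other activators of snRNA genes, 3 had a peak in the shCtrl list, 2 in the shU2AF1 list and 4 in the shDHX9 list. The strongest were ZNF143 in the shCtrl list (rank 1042) and SNAPC4, the largest SNAPc subunit, in the shU2AF1 list (rank 490) and in the shDHX9 list (rank 347). Of 15 Integrator genes, 8, 3 and 8 had a peak, against 5.93%, 3.42% and 9.79% of all genes. They were led by INTS6 (rank 179), INTS10 (rank 628) and INTS5 (rank 255). The rule also counts peaks inside a gene: the shDHX9 summit at INTS9 lay 8663 bp from the gene start. Of 6 genes of export and assembly, 0, 0 and 1 had one, the last being the export adaptor PHAX (rank 3047).

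The genes closest to the listed ones in pattern were other snRNA genes. Over the 3 lists, the distance between a gene's log2 rank percentiles and the median of the 9 shared genes was smallest for RNU5F-1 (0.43 on the log2 scale), RNVU1-8 (0.79), the small nuclear RNA gene RNU7-1 (0.81), a gene annotated as U2 (0.81) and RNVU1-28 (0.90), out of 1287 genes with a peak in every list. RNU5F-1 ranked 34, 26 and 23 in the control, shU2AF1 and shDHX9 lists. The likeness rests on 3 values per gene.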

How the data were processed

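POLR2A ChIP-seq peaks of 9 samples were used as 3 deposited narrowPeak lists, 1 per condition, named in the labels of both ChIP replicates. Control peaks are named after what reads as the first replicate, so whether replicates were pooled is unclear, and inputs gave no value of their own. Bowtie2 2.4.5, MACS2 2.2.7.1, deepTools 3.5.1 and hg38 are named in the submitters' processing notes, without role or settings. Read filters, read length and handling of the input are not given in the sources used here. The deposited values are the authors' fold enrichment (a ratio), −log10 of p and q, and a score that is 10 times the −log10 q as a whole number. All peaks lay on sequences of hg38, and 0 ended past one.

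Gene positions came from GENCODE version 44. Ranks, widths and offsets were computed with pandas 2.3.3 and NumPy 2.4.6, overlap meaning at least 1 bp. Identity is matches over alignment columns of global alignments (Biopython 1.88). Copies of windows were exact matches on both strands of all 455 reference sequences. No U1 gene was among the RefSeq promoters, so sequences were read from hg38. The code was tested on simulated data. Offsets count from 0 at the first base of the gene. Depth is unknown, so no test and no interval for counting error was made; the spread of a median over genes was taken as its 95% binomial interval when alternatives were judged.

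All 10 listed genes are named. So are other U1 genes with a peak, the strongest gene of each pathway list, and the 5 genes most like them in rank. The members and lists were chosen with earlier results of these data known. The alternatives were start windows of 500 and 2000 bp, gene overlap only, −log10 q of at least 5, equal numbers of top peaks (1730), nearest summit, rank by −log10 p, distinct peaks, merging within 1000 bp, and other window lengths and stretches. Leaving out alternate sequences, the motif ATGNAGAT, and the thresholds of 100 bp for summits and 1000 bp for wide peaks were chosen after the data were seen.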

Additional observations from a re-analysis of the deposited data

How the results depend on the processing

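Of 78 alternative values for the number, rank, width and summit offset of the peaks, 77 stayed within 1.5 times the number of genes or within the 95% binomial interval of the median over genes, and 1 moved. Part of these alternatives could not move the value. Each listed gene had at most 1 peak in a list, and none was shared, so nearest summit and distinct peaks changed nothing. The peaks of the 9 shared genes overlapped their genes, so a window of 500 bp and gene overlap only kept them. The 1730 top peaks are the whole shU2AF1 list. The count of 77 therefore measures stability only in part. With 1730 top peaks in each list, the median rank percentile of the listed genes in the shDHX9 list was 1.62%, against 0.630% in the whole list. In the shCtrl list it was 1.503% under this setting, against 0.943%. The setting shortens both lists by construction. With −log10 q of at least 5 the median was 0.984% in the shDHX9 list and 2.23% in the shU2AF1 list, where the value was 1.33% as reported and 2.31% when ranked by −log10 p. The number of listed genes with a peak was 9 in the control and shU2AF1 lists under all 5 alternatives tried, and 9 or 10 in the shDHX9 list, depending on RNVU1-19. The median summit offset stayed at 212 bp and 462 bp in the control and shU2AF1 lists and was 435 to 449.5 bp in the shDHX9 list. The share of 50-base windows that occurred once was 23.4% with and without alternate sequences. No paired analysis was possible because a condition holds only 1 list of peaks, and leaving out a replicate was not possible for the same reason. Depth is unknown, so a missing peak, as at RNVU1-19, was not detected in that list and is not shown to be absent.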

Other observations

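Genes of the U1 family that had the proximal element core and no peak in any list were RNVU1-17 (93.3% identical to RNU1-1), RNU1-155P (62.9%) and RNU1-65P (74.7%). RNVU1-34 had a peak in every list with no match to the core and with 79.5% identity, and it ranked 14 in the shCtrl list, 42 in the shU2AF1 list and 33 in the shDHX9 list. These genes were singled out after their values were seen.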
